A study of Equus caballus with 34 samples.

Results

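The mitotic spindle, kinetochore and cytokinesis genes were followed in the 2 cell layers of the dominant follicle of the horse (Equus caballus). The members are a fixed list of 50 genes, of cell division but for REP15, matched to array probes by gene symbol or by the protein name in the probe's description. The list was chosen with earlier results of these data known, so a shared course of its members is no independent finding. Probes matched 49 of the 50 genes, and the gene MELK had no matching probe. The 49 genes had 89 probes, 2 of which, matched to NCAPG, are of doubtful identity. Each of the 89 passed the minimum of 5 arrays with a signal well above background. The probe detected on the fewest arrays, that of FOXM1, was detected on 18 of 34. The 49 genes and their probes stand among 12037 named genes and 36630 probes that passed the same minimum, of 43603 probes outside the controls. The study hybridised total RNA, amplified and labelled with Cy3, to single-colour Agilent arrays, 1 array per sample. Granulosa cells (GC), which line the inside of the follicle, and the theca wall (TW), the vascular tissue around them, were each taken at 3 stages, which the labels call early dominant (ED) and late dominant follicles (LD) and preovulatory follicles (PO). GC ED, GC LD, GC PO, TW ED and TW PO had 5 arrays each and TW LD had 9. The design text calls the samples biological replicates and states a comparison of ED with LD and of LD with PO within each layer. No treatment, strain or age is given in the labels, and the sources used here do not say which samples came from one follicle.

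Cells divide by condensing their chromosomes, attaching each pair of sister chromatids to spindle microtubules at kinetochores, separating them at anaphase and pinching the cell at cytokinesis. Most genes of this machinery are transcribed in the later part of the cell cycle by shared regulators, among them FOXM1 and the E2F and MYB family complexes, so that their mRNA is abundant in dividing cells and scarce in resting ones. Granulosa cells divide rapidly while a follicle grows, and in mammals they leave the cell cycle when the preovulatory surge of luteinizing hormone starts their conversion to luteal cells. In a bulk sample, fewer dividing cells and less of these mRNAs per cell cannot be told apart.

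Throughout, a level is log2 of a probe's background-corrected signal minus the 75th percentile of that array, so that a level of 0 is the brightness of the 75th percentile probe. A gene is represented by its brightest probe, and levels are compared between arrays for 1 probe, never between probes. A change was called when its Benjamini-Hochberg adjusted p, over all features of a limma fit, was under 0.05. Changes are differences of group means on the log2 scale and are given ± the standard error of the fit. With 5 arrays in most groups, the number of arrays limits the precision. Between 64.3% and 82.5% of the spots of an array were well above background. Below, "above background" means this flag of the scanner files, and a spot without it may still hold signal. The GC arrays lay on 5 slides that each held 1 array of every GC stage, and the TW arrays on 5 others, except that 1 TW LD array lay on each of slides 2 and 8, so GC and TW can be compared within a slide at LD alone. The design text states that every group was on each slide, and the file headers do not bear this out. The 4 arrays of slide 7 (TW LD 6 and 7, TW ED 4, TW PO 4) had 1285 to 1718 spots flagged as outliers, against 69 to 593 on other slides; such spots were left out, here CDK1 and TPX2 on TW ED 4, AURKB, STIL, STMN1 and SMC4 on TW LD 7 and STMN1 on TW PO 4, and on slide 3 BUB1 on GC ED 2. The layers matched their markers: the summed linear level of 7 granulosa markers was 125 to 355 on GC arrays and 13.8 to 85.1 on TW arrays, and that of 8 theca stroma markers was 145 to 255 on TW arrays and 10.3 to 75.4 on GC arrays. The highest granulosa sums in TW were 48.2 on TW ED 3 and 85.1 on TW ED 5. Levels of 7 oocyte markers summed to 0.185 at most on any array. Between 0 and 5 of them were above background on a TW LD array and 1 to 3 on a GC PO array. DAZL, an oocyte and germ cell gene, was above background on no GC, TW ED or TW LD array. Of the 2 oocyte markers tested in granulosa cells, 1 was called higher in PO than in ED.

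The probes are 60-base oligonucleotides, and the letters that carry the results are printed here 5′ to 3′ as the scanner files give them; neither their genome positions nor the exons they lie in were looked up, since no genome was used.
CENPF and NDC80 were above background on no preovulatory granulosa array, and AURKA was the exception to the fall in these cells.
CENPF: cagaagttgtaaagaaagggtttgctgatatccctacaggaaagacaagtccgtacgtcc
NDC80: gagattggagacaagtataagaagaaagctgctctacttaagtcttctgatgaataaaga
AURKA: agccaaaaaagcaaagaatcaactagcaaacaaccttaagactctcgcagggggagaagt
CENPE and KIF4A each had 2 probes whose changes differed in size. The CENPE probes shared no run of 20 bases. The capitals in the KIF4A pair mark the 28 bases that both probes hold.
CENPE probe 1: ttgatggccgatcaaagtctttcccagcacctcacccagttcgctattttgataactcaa
CENPE probe 2: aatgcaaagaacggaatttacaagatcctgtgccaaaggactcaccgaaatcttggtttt
KIF4A probe 1: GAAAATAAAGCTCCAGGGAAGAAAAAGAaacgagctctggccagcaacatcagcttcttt
KIF4A probe 2: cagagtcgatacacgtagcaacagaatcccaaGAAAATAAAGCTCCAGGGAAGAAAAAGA
NCAPG is shown because its 4 probes fell into 2 pairs. Probes 1 and 2 carry the description of condensin complex subunit 3, and probes 3 and 4 that of a predicted transcript similar to the condensin protein CAP-G. The identity of probes 3 and 4 as NCAPG is therefore in doubt, and their values are not read as those of NCAPG.
NCAPG probe 1: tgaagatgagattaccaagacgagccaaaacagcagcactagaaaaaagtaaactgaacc
NCAPG probe 2: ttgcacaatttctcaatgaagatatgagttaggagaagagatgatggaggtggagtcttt
NCAPG probe 3: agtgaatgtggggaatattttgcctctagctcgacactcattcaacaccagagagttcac
NCAPG probe 4: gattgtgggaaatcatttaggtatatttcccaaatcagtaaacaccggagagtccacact
BIRC5 had 2 probes that overlap by 58 bases and differ at the 3 bases in capitals. They carry different gene names and were both matched by the protein name in the description.
BIRC5 probe 1: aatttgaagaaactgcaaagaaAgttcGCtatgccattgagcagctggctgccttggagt
BIRC5 probe 2: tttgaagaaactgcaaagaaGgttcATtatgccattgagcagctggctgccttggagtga

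In granulosa cells, 48 of the 49 genes fell from the early dominant to the preovulatory stage, AURKA being the exception, and the median change of the 49 genes was −5.71. The median change of all 25068 features of the fit was 0.037, and 22.4% of them were called lower. The smallest called change was −2.05 (SMC2), a call lost without GC PO 2 or GC PO 4 (adjusted p = 0.0519 and 0.0501). On 47 of the 49 genes every GC PO array lay below every GC ED array, as for 17.3% of all features. SMC2 was called with overlapping groups. Within the 5 GC slides, each holding 1 array of every stage, the median PO minus ED difference over the genes lay between −6.36 and −4.78, and 46 genes were lower in PO on all 5 slides, with BUB1 lower on the 4 slides where it was measured. On each GC ED array all 49 brightest probes were well above background, and on the GC PO arrays between 32 and 43 were. In GC PO the probes of NDC80, CENPF, SGO1, FOXM1 and E2F8 were above background on no array, those of KIF20A, MKI67 and SGO2 on 1, those of STIL, BUB1B and REP15 on 2 and those of DLGAP5 and TTK on 3 of the 5 arrays. Changes of these genes against GC PO are not exact and have no order of size. A probe that no array of a group measured above background has only an approximate bound in that group, written as "at least so many fold". The mean of the bright group was set against a floor. On each dim array the floor was the dimmest signal of any probe called above background, or the probe's own level if that was higher. On GC PO 1 that dimmest signal was −8.35, while ANLN at −6.11 there was not above background. The floor is therefore not a detection limit, and "at least" marks an approximate figure and not a strict bound. With the 5 genes that no GC PO array measured set at their bound the median stayed at −5.71. None of the 5 crossed the median by this, and genes detected on 1 to 3 GC PO arrays were left as measured. The unchanged median is therefore no check on undetected signal. With background modelled by the normexp method in place of the scanner's processed signal the median was −3.49, and in the authors' deposited table it was −4.47; in both, 48 genes were called lower.

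**Figure D1:**
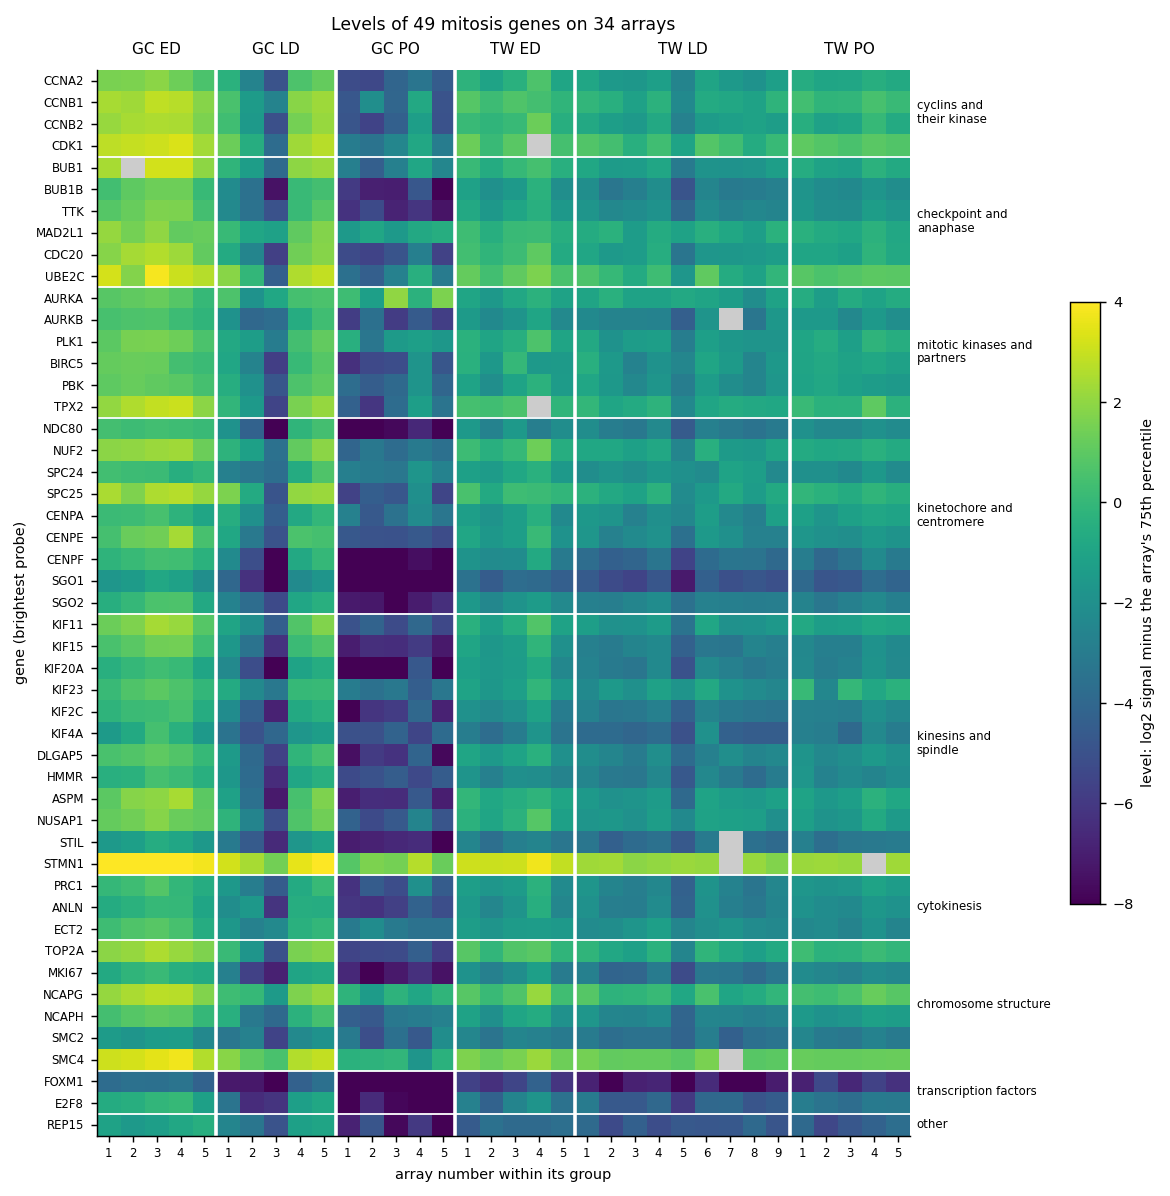
Levels (log2 signal minus the array's 75th percentile) of the 49 genes (lines, grouped by role) on the 34 arrays (columns, by group and array number), with colours capped at −8 and 4 and grey for spots left out. The GC PO columns are the lowest for nearly all genes, and GC LD 2 and 3 stand between or with them, while AURKA does not follow the other genes.

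Markers of other cells moved between the same GC arrays. The summed linear level of 6 smooth muscle and pericyte markers was 0.193 to 0.355 in GC ED, 0.196 to 4.29 in GC LD and 1.32 to 2.73 in GC PO, against 3.43 to 33.5 in TW; from ED to PO TAGLN rose by 3.32 and ACTA2 by 1.23, and RGS5 differed by 0.31, not called. CNN1, a calponin of smooth muscle, and DES, desmin, were above background on no GC ED array and passed the minimum through the other stages; CNN1 was at least 202-fold (adjusted p = 0.000743) and DES at least 17.1-fold higher in PO (adjusted p = 0.00234), while MYH11, smooth muscle myosin, was above background on no GC array. The 6 leukocyte markers summed to 0.176 to 0.52 in GC ED and 1.34 to 4.93 in GC PO; CD14 rose by 4.60 and C1QB by 2.05, and CD3E, above background on 1 of the 5 PO arrays, was called lower. The 7 endothelial markers summed to 0.0456 to 0.223 in GC ED and 0.0421 to 0.15 in GC PO, with TEK and EMCN above background on no GC array, and none of the 3 tested was called. The 3 red blood cell markers summed to 0.117 to 0.39 in GC ED and 0.235 to 0.355 in GC PO, with 1 called higher. Among 7 granulosa markers, FSHR (the receptor of follicle-stimulating hormone) fell by 3.71, FST (follistatin) by 3.01 and INHBA by 0.90, and none rose. The part of these cells in the change of the mitosis genes was not tested.

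The cyclins and their kinase all fell, 4 of 4, with a median of −5.83. CCNA2 encodes cyclin A2, which partners the kinase through S phase and into mitosis, and its levels were 1.60, 1.63, 1.93, 1.37 and 0.58 in GC ED, −0.35, −2.63, −4.93, 0.63 and 1.17 in GC LD and −5.23, −5.40, −4.08, −3.33 and −4.53 in GC PO. Every PO array was below every ED array, while the LD arrays spanned the distance between them. The CCNA2 change from ED to PO was −5.94 ± 0.91 (adjusted p = 0.000289) and from LD to PO −3.29 ± 0.91 (adjusted p = 0.0246). CCNB1, cyclin B1, which triggers entry into mitosis, was at 2.42, 2.28, 2.84, 2.70 and 1.81 in GC ED, 0.57, −1.42, −2.66, 1.88 and 2.26 in GC LD and −4.76, −2.08, −4.03, −0.75 and −4.94 in GC PO. Its PO arrays scattered widely, PO 4 being highest and PO 2 next, but all stayed below the ED arrays. CCNB1 changed by −5.72 ± 0.94 (adjusted p = 0.000398) from ED to PO and by −3.44 ± 0.94 (adjusted p = 0.0239) from LD to PO. CDK1, the kinase itself, gave 2.79, 2.96, 3.07, 3.34 and 2.33 in GC ED, 1.28, −0.53, −3.75, 2.29 and 2.72 in GC LD and −2.96, −3.44, −2.50, −0.82 and −2.98 in GC PO. Again PO 4 was the highest PO array and no PO array reached an ED array. The CDK1 change was −5.44 ± 0.95 (adjusted p = 0.00056) from ED to PO and −2.94 ± 0.95 (adjusted p = 0.0452) from LD to PO. CCNB2, the other B cyclin, fell by 6.44 from ED to PO.

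All 6 checkpoint and anaphase genes fell from ED to PO, with a median of −6.30. BUB1, a checkpoint kinase at kinetochores that have not attached, was at 2.42, 3.17, 3.19 and 1.95 in GC ED, −0.14, −1.31, −3.87, 1.96 and 2.20 in GC LD and −2.82, −4.35, −2.75, −0.92 and −2.48 in GC PO, with the spot on GC ED 2 left out. The groups ED and PO did not overlap, and LD 4 and 5 were inside or close to the ED levels. BUB1 changed by −5.35 ± 1.04 (adjusted p = 0.0012) from ED to PO, and its LD to PO difference of −2.43 ± 0.98 was not called (adjusted p = 0.0966). TTK, the kinase (also named MPS1) that starts the checkpoint signal, was at 0.84, 1.20, 1.69, 1.62 and 0.41 in GC ED, −2.34, −3.46, −4.98, 0.15 and 0.82 in GC LD and −6.26, −5.29, −6.82, −6.16 and −7.35 in GC PO. For TTK the PO arrays lay below all ED arrays and below all LD arrays too. Its changes were −7.53 ± 0.87 (adjusted p = 0.000184) from ED to PO, where 3 of the 5 PO arrays were above background, and −4.42 ± 0.87 (adjusted p = 0.00698) from LD to PO. UBE2C, a ubiquitin-conjugating enzyme that works with the anaphase-promoting complex, gave 3.21, 1.77, 3.86, 3.05 and 2.65 in GC ED, 1.88, −0.038, −4.37, 2.59 and 2.89 in GC LD and −3.57, −4.38, −2.71, −0.42 and −3.02 in GC PO. PO 4 stood above the other PO arrays and LD 3 was as low as the lowest PO array. UBE2C changed by −5.73 ± 1.14 (adjusted p = 0.0012) from ED to PO and its LD to PO difference was −3.41 ± 1.14 (adjusted p = 0.0509), just short of the threshold. The other members of this role, BUB1B (the checkpoint protein BUBR1), CDC20 (which activates the anaphase-promoting complex) and MAD2L1 (its checkpoint inhibitor), changed by −7.35, −6.87 and −2.64 from ED to PO, all called.

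Of the 6 mitotic kinases and partners, 5 fell from ED to PO and AURKA did not, with a median of −5.02. AURKB, the kinase of the chromosomal passenger complex that corrects wrong attachments, was at 0.50, 0.67, 0.71, 0.24 and −0.16 in GC ED, −1.88, −3.96, −3.72, −0.55 and 0.34 in GC LD and −5.84, −3.58, −5.85, −4.53 and −5.78 in GC PO. PO and ED arrays were far apart, and LD 2 and 3 were as low as the highest PO array. AURKB changed by −5.51 ± 0.73 (adjusted p = 0.000184) from ED to PO and by −3.16 ± 0.73 (adjusted p = 0.0125) from LD to PO. BIRC5, survivin, which belongs to the same complex, was at 1.16, 1.28, 1.23, 0.40 and 0.18 in GC ED, −0.88, −2.65, −5.78, 0.092 and 0.85 in GC LD and −6.33, −5.34, −5.14, −1.80 and −4.81 in GC PO. Its PO 4 was less low than the other PO arrays, and LD 3 lay among these. BIRC5 changed by −5.53 ± 1.06 (adjusted p = 0.000952) from ED to PO, while the LD to PO difference of −3.01 ± 1.06 was not called (adjusted p = 0.0613). TPX2, which activates AURKA on the spindle, was at 2.08, 2.59, 2.91, 3.04 and 1.90 in GC ED, −0.11, −1.49, −5.52, 1.57 and 2.08 in GC LD and −4.26, −6.11, −3.75, −1.28 and −3.39 in GC PO. LD 3 was lower than all PO arrays but PO 2. TPX2 changed by −6.26 ± 1.17 (adjusted p = 0.00083) from ED to PO, and its LD to PO difference was −3.06 ± 1.17 (adjusted p = 0.0805).

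PLK1, the polo-like kinase of mitotic entry and spindle poles, was at 0.97, 1.53, 1.59, 1.36 and 0.60 in GC ED, −0.76, −1.32, −2.97, 0.40 and 1.10 in GC LD and −0.43, −3.30, −1.48, −1.22 and −1.67 in GC PO. The PO arrays were below all ED arrays, but LD 3 was lower than 4 of the 5 PO arrays. PLK1 changed by −2.83 ± 0.66 (adjusted p = 0.00323) from ED to PO, one of the smaller falls, and by −0.91 ± 0.66 from LD to PO (adjusted p = 0.349, not called). AURKA, the kinase of spindle poles, behaved unlike the others, with levels of 0.86, 1.08, 1.23, 0.84 and 0.054 in GC ED, 0.63, −1.89, −0.85, 0.45 and 0.61 in GC LD and 0.26, −1.23, 2.03, −0.30 and 1.61 in GC PO. PO 3 and PO 5 were its 2 highest GC arrays and PO 2 one of its lowest, so the PO group spanned most of the range of the other stages. The AURKA difference between PO and ED was −0.34 ± 0.61 (adjusted p = 0.682), and between PO and LD 0.69 ± 0.61 (adjusted p = 0.459); neither was called. AURKA had 1 probe, well above background on all 34 arrays. PBK, a kinase active in mitosis, changed by −4.52 ± 0.86 (adjusted p = 0.000934) from ED to PO.

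The 9 kinetochore and centromere genes all fell from ED to PO, with a median of −6.75. CENPF, a large protein of the outer kinetochore, was at −0.21, 0.077, 0.41, 0.33 and −0.34 in GC ED, −2.27, −5.13, −8.94, −0.76 and −0.026 in GC LD and −8.33, −8.92, −8.74, −7.54 and −9.36 in GC PO. The CENPF probe was above background on no GC PO array, and LD 3 was as dim. Its change was −8.63 ± 1.23 (adjusted p = 0.000223), at least 299-fold lower in PO than in ED, and from LD to PO it was −5.15 ± 1.23 (adjusted p = 0.014), at least 26.8-fold lower. Over the settings run these CENPF changes ran from −8.89 to −3.59 and from −6.62 to −1.65. The smallest of them fall well short of the folds given. NDC80, the subunit of the NDC80 complex that grips microtubules, was at 0.43, 0.23, 0.39, 0.26 and 0.15 in GC ED, −1.88, −4.21, −9.02, −0.15 and 0.41 in GC LD and −8.46, −8.87, −7.73, −6.64 and −8.59 in GC PO. ED arrays were tight, and no PO array was above background. NDC80 changed by −8.35 ± 1.30 (adjusted p = 0.000326), at least 287-fold lower in PO, and by −5.09 ± 1.30 (adjusted p = 0.018) from LD to PO. SPC25, another subunit of that complex, was at 2.45, 1.70, 2.51, 2.65 and 2.12 in GC ED, 1.64, −0.66, −4.90, 2.08 and 2.18 in GC LD and −5.62, −4.40, −4.76, −2.02 and −5.51 in GC PO. LD 1, 4 and 5 were close to ED, LD 2 was between the groups and LD 3 was among the PO arrays. SPC25 changed by −6.75 ± 1.11 (adjusted p = 0.000407) from ED to PO and by −4.53 ± 1.11 (adjusted p = 0.0156) from LD to PO.

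SGO2, a shugoshin that protects the cohesion of centromeres, was at −0.50, 0.0065, 0.62, 0.63 and −0.74 in GC ED, −2.66, −3.69, −5.29, −0.88 and −0.45 in GC LD and −7.15, −7.21, −8.57, −7.09 and −6.40 in GC PO. The PO arrays lay below every array of both other GC stages. SGO2 changed by −7.29 ± 0.75 (adjusted p = 0.000184) from ED to PO and by −4.69 ± 0.75 (adjusted p = 0.00552) from LD to PO, the lowest adjusted p of the members in the latter comparison. SGO1, the related shugoshin of mitosis, was above background on no GC PO array and was at least 110-fold lower in GC PO than in ED (adjusted p = 0.000193). Of the other subunits of the NDC80 complex, NUF2 changed by −5.48 ± 0.74 (adjusted p = 0.000185) and SPC24 by −2.76 ± 0.67 (adjusted p = 0.0042). CENPE, a kinesin of the kinetochore, changed by −6.09 ± 0.85 (adjusted p = 0.000199), and CENPA, the histone variant that marks the centromere, by −3.20 ± 0.69 (adjusted p = 0.00212). Within the NDC80 complex, SPC24, NUF2 and SPC25 were above background on every GC PO array. Their changes of −2.76, −5.48 and −6.75 were read on probes that differ in brightness. NDC80 itself has only an approximate bound in GC PO and is not ranked with them. Its change from ED to PO ran from −8.70 to −3.77 over the settings run.

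All 12 kinesin and spindle genes fell from ED to PO, with a median of −6.15. KIF11, the motor that pushes the spindle poles apart, was at 1.31, 1.70, 2.40, 2.17 and 0.84 in GC ED, −0.99, −2.05, −4.42, 0.75 and 1.73 in GC LD and −4.98, −4.19, −5.27, −3.96 and −5.41 in GC PO. LD 3 was within the range of the PO arrays, and LD 5 within that of the ED arrays. KIF11 changed by −6.44 ± 0.86 (adjusted p = 0.000184) from ED to PO and by −3.76 ± 0.86 (adjusted p = 0.0118) from LD to PO. KIF20A, a motor of the central spindle, was at −0.43, −0.0019, 0.31, 0.10 and −0.94 in GC ED, −2.33, −5.16, −8.97, −1.06 and −0.59 in GC LD and −8.40, −8.98, −8.79, −4.72 and −9.46 in GC PO. PO 4 was well above the other PO arrays, which were at the dim end, and still below all ED arrays. KIF20A changed by −7.88 ± 1.32 (adjusted p = 0.000448) from ED to PO and by −4.45 ± 1.32 (adjusted p = 0.0331) from LD to PO. STMN1, stathmin, which destabilises microtubules, was at 4.55, 4.50, 4.53, 4.10 and 3.79 in GC ED, 3.18, 2.43, 1.44, 3.53 and 4.16 in GC LD and 0.85, 1.63, 1.48, 2.64 and 1.25 in GC PO. All of its GC levels were above 0, and LD 3 again was within the PO range. STMN1 changed by −2.72 ± 0.45 (adjusted p = 0.000404), a 6.6-fold fall, from ED to PO and by −1.38 ± 0.45 (adjusted p = 0.0467) from LD to PO.

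KIF15, a motor that keeps the poles apart together with KIF11, changed by −7.51 ± 0.97 (adjusted p = 0.000184) from ED to PO. ASPM, which focuses the minus ends of microtubules at the poles, changed by −7.94 ± 1.22 (adjusted p = 0.000303). DLGAP5, HMMR and NUSAP1, which stabilise or bundle spindle microtubules, changed by −6.94, −4.81 and −5.66, all called. KIF2C, which takes microtubules apart at centromeres, changed by −6.25, KIF23, a motor of the central spindle, by −3.94, KIF4A, a motor on chromosome arms, by −3.99 and STIL, which is needed to build centrioles, by −6.05, and these 4 were called too. All 3 cytokinesis genes fell, with a median of −4.55. PRC1, which crosslinks the microtubules of the midzone, was at −0.02, 0.27, 0.78, −0.061 and −0.59 in GC ED, −1.62, −2.94, −4.51, −0.65 and 0.077 in GC LD and −6.23, −4.52, −5.15, −1.98 and −4.49 in GC PO. PO 4 was higher than the other PO arrays and inside the LD range, and no PO array reached the ED levels. PRC1 changed by −4.55 ± 0.82 (adjusted p = 0.000676) from ED to PO and by −2.55 ± 0.82 (adjusted p = 0.0453) from LD to PO. ANLN, anillin, a scaffold of the contractile ring, was at −0.60, −0.35, 0.061, −0.029 and −0.94 in GC ED, −2.13, −1.62, −6.21, −0.54 and −0.57 in GC LD and −6.11, −6.22, −5.71, −4.23 and −5.13 in GC PO. LD 3 stood with the PO arrays and far from the other 4 LD arrays. ANLN changed by −5.11 ± 0.84 (adjusted p = 0.000396) from ED to PO and by −3.27 ± 0.84 (adjusted p = 0.0183) from LD to PO, and ECT2, which switches on the GTPase RhoA at the division plane, by −3.43 ± 0.49 (adjusted p = 0.000218) from ED to PO.

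The 6 chromosome structure genes fell from ED to PO, with a median of −4.01, the smallest of the roles. MKI67, the Ki-67 protein that coats mitotic chromosomes, was at −0.72, −0.15, 0.11, −0.41 and −0.66 in GC ED, −2.79, −5.70, −6.90, −1.01 and −0.74 in GC LD and −6.64, −8.14, −7.19, −6.36 and −7.41 in GC PO. All LD arrays lay below all ED arrays, the only gene of the 49 with this pattern, against 0.798% of all features. The probe was above background on 1 of the 5 PO arrays. MKI67 changed by −6.78 ± 0.96 (adjusted p = 0.000208) from ED to PO, by −3.72 ± 0.96 (adjusted p = 0.0186) from LD to PO and by −3.06 ± 0.96 from ED to LD, which was not called (adjusted p = 0.215). TOP2A, the topoisomerase that untangles sister chromatids, was at 1.91, 2.08, 2.54, 2.15 and 1.66 in GC ED, 0.13, −1.76, −5.01, 1.56 and 1.83 in GC LD and −5.56, −5.35, −5.27, −4.37 and −5.76 in GC PO. ED and PO arrays were each tight, and LD spanned almost the whole distance. TOP2A changed by −7.33 ± 0.96 (adjusted p = 0.000184) from ED to PO and by −4.61 ± 0.96 (adjusted p = 0.00843) from LD to PO. NCAPG, a condensin subunit, was at 2.11, 2.50, 2.76, 2.71 and 1.72 in GC ED, 0.25, 0.047, −1.44, 1.66 and 2.09 in GC LD and −0.20, −1.42, −0.23, −0.89 and −0.16 in GC PO. Its LD 3 was as low as the lowest PO array. NCAPG changed by −2.94 ± 0.54 (adjusted p = 0.000743) from ED to PO, and its LD to PO difference of −1.10 ± 0.54 was not called (adjusted p = 0.162). NCAPH, SMC4 and SMC2, the other condensin subunits of the list, changed by −4.22, −3.79 and −2.05 from ED to PO, all called.

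Both transcription factors fell. FOXM1, an activator of late cell cycle genes, was at −3.77, −3.53, −3.58, −3.36 and −4.21 in GC ED, −7.17, −7.21, −8.91, −4.27 and −3.59 in GC LD and −8.35, −8.89, −8.73, −8.67 and −9.06 in GC PO. Its probe was dim in all groups and above background on no GC PO array, and LD 1, 2 and 3 were low while LD 4 and 5 were near ED. FOXM1 changed by −5.05 ± 0.76 (adjusted p = 0.000271), at least 21.4-fold lower in PO than in ED, and by −2.51 ± 0.76 (adjusted p = 0.0353) from LD to PO. With the normexp background these changes were −1.18 (adjusted p = 0.00119) and −0.40 (adjusted p = 0.323), and in the authors' deposited table −2.18, still called, and −0.93 (adjusted p = 0.0805). The FOXM1 call from LD to PO was also lost without GC LD 4, GC LD 5, GC PO 1, GC PO 3, GC PO 4 or GC PO 5. E2F8, an atypical E2F that represses transcription, was at −0.63, −0.49, −0.12, 0.019 and −1.17 in GC ED, −3.37, −6.50, −6.19, −1.22 and −0.87 in GC LD and −8.33, −6.54, −7.79, −8.39 and −8.12 in GC PO. No PO array reached any array of the other GC stages, and none was above background. LD 2 (−6.50) and PO 2 (−6.54) were nearly level, and LD 2 was not above background either, so their order is not a measured one. E2F8 changed by −7.36 ± 0.93 (adjusted p = 0.000184), at least 125-fold lower in PO than in ED, and by −4.20 ± 0.93 (adjusted p = 0.0106) from LD to PO. Over the settings run these E2F8 changes ran from −7.68 to −3.12 and from −5.26 to −1.27. The smallest from ED to PO falls well short of the fold given. REP15, an effector of the small GTPase RAB15 in membrane recycling and not a known spindle protein, was at −1.10, −1.48, −1.28, −0.82 and −0.49 in GC ED, −2.55, −3.28, −4.92, −1.18 and −0.99 in GC LD and −6.87, −4.82, −7.74, −6.004 and −8.29 in GC PO. Its means descended from ED through LD to PO, and PO lay below all ED arrays. Because the list was chosen with earlier results of these data known, this likeness to the other members is no independent finding. REP15 changed by −5.71 ± 0.72 (adjusted p = 0.000184) from ED to PO and by −4.16 ± 0.72 (adjusted p = 0.0058) from LD to PO.

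The late dominant granulosa arrays differed from each other more than the other GC groups did. The median level of the 49 genes was 0.15 to 1.23 on the GC ED arrays and −5.23 to −3.95 on the GC PO arrays, and on GC LD arrays 1 to 5 it was −0.99, −2.71, −4.94, 0.13 and 0.61. On LD 3 all 49 genes were nearer to the GC PO mean than to the GC ED mean, and on LD 2 this held for 46 genes. On LD 1 it held for 10 genes and on LD 4 and LD 5 for 1 gene each. The number of genes below every GC ED array was 46, 49, 49, 33 and 1 on LD 1 to 5. On the same arrays the summed level of smooth muscle and pericyte markers was 2.04, 1.24, 4.29, 0.375 and 0.196, that of leukocyte markers 2.24, 0.847, 4.12, 0.5 and 0.516, and that of granulosa markers 326, 162, 135, 280 and 186; their part in the spread was not tested. The share of spots above background was 65.8%, 64.3%, 71.9%, 71.1% and 72.1%, and all 5 arrays lay on different slides.

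**Figure D2:**
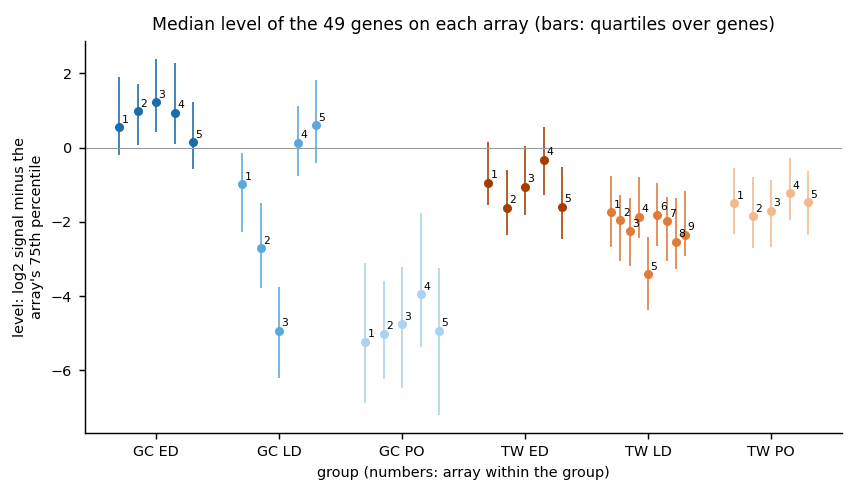
Median level of the 49 genes on each of the 34 arrays by group, as log2 signal minus the array's 75th percentile, with bars for the quartiles over genes and array numbers beside the points. GC LD runs from −4.94 to 0.61, which covers nearly the distance between the GC ED and GC PO arrays, and the TW groups lie between −3.42 and −0.33.

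From ED to LD in granulosa cells all 49 differences were negative, with a median of −2.51 against 8e-04 over all features, and none was called (lowest adjusted p = 0.2). Of the 25072 features tested, 0.00399% were called in either direction, and 46 of the 49 genes had an unadjusted p under 0.05, as did 7.16% of all features in the same direction. In the fit of all 34 arrays, which shares 1 estimate of the spread between the layers, 39 were called lower, where 2.76% of all features were. Without LD 5 there were 25 calls, with 2.51% of all features called lower. From LD to PO, 34 of the 49 genes fell and none rose, with a median of −3.27, and 10.6% of all features were called lower. All of the cyclins with their kinase (4 of 4), cytokinesis genes (3 of 3) and transcription factors (2 of 2) were among them, with 7 of 9 kinetochore genes, 10 of 12 kinesin and spindle genes, 3 of 6 checkpoint genes, 3 of 6 chromosome structure genes, REP15 and 1 of 6 mitotic kinases and partners (AURKB). TTK, SMC4, SGO2 and E2F8 were the 4 genes whose PO arrays lay below all LD arrays, against 4.01% of all features. For E2F8 this rested on LD 2 and PO 2, which were nearly level and neither above background. The count of calls depended on single LD arrays: it was 45 without LD 3, 16 without LD 4, 18 without LD 5 and 22 without LD 1. Without PO 1, PO 3 or PO 5 it was 21, 21 and 20. Within slides, the median LD minus ED difference was −1.92 on slide 2 (LD 1), −3.73 on slide 3 (LD 2), −6.32 on slide 5 (LD 3), −0.91 on slide 8 (LD 4) and 0.39 on slide 10 (LD 5). The median PO minus LD difference on the same slides was −3.98, −2.31, 0.18, −3.97 and −5.71. Only 3 genes were lower in LD than in ED on all 5 slides, and 17 were lower in PO than in LD on all 5.

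**Figure D3:**
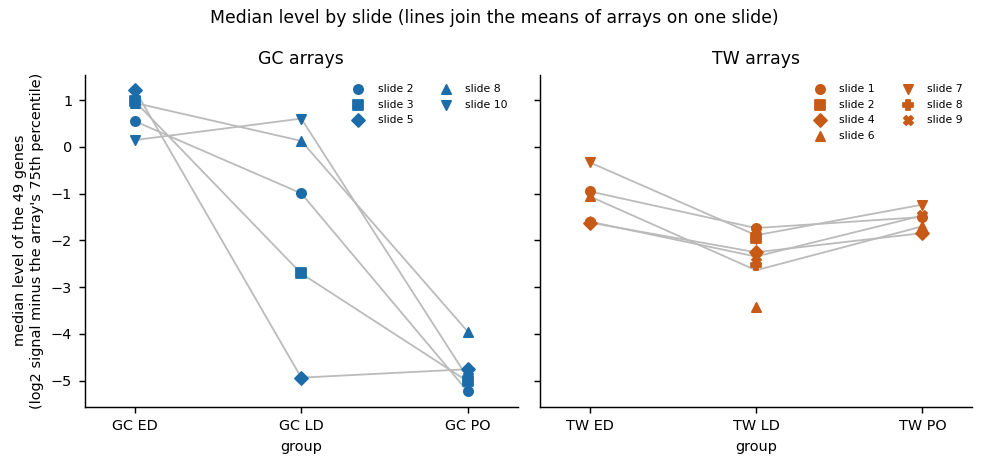
Median level of the 49 genes (log2 signal minus the array's 75th percentile) by stage, with lines joining the means of arrays on one slide, for GC (left) and TW (right). All 5 GC slides fall from ED to PO, but on slide 5 the fall is complete at LD and on slide 10 LD is above ED, while the TW lines are lowest at LD.

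In the theca wall the stage differences were smaller and took another course. All 49 genes were lower in LD than in ED, with a median of −1.15, and 2 of them, KIF15 and STMN1, were called, where 0.022% of all 27307 features were called lower. On 11 genes every LD array lay below every ED array, against 0.549% of all features. Within the 5 TW slides the median difference was between −1.72 and −0.58, and 39 genes were lower in LD on all 5, with CDK1 and TPX2 lower on the 4 slides where they were measured. From LD to PO the median was 0.75 and 6 genes rose: CCNB1, FOXM1, MKI67, NCAPH, PRC1 and UBE2C, which is 12.2% of the 49, where 8.7% of all features were called higher. Within the TW slides 30 genes were higher in PO than in LD on all 5, with slide medians of 0.23 to 0.90. From ED to PO the median was −0.37, and ECT2, KIF15, NUSAP1, SGO2, SPC24 and STMN1 were lower, 12.2% of the 49, where 12.4% of all features were called lower. On that last comparison the share of members called was the background share. The count of 2 calls between LD and ED became 0 with slide as a fixed block, 0 with the normexp background, 10 in the authors' deposited table and 29 with array quality weights, all lower, and it was 0 or 1 in 15 of the 19 fits that left out 1 array. The count of 6 between PO and LD became 0 with the fixed block, with normexp, in the fit of all arrays, or without the 2 TW LD arrays on GC slides, and 24 with quality weights; it was 0 without PO 5, 2 without LD 8, PO 1 or PO 4, 3 without LD 3, LD 7 or PO 3, 11 without ED 4, 17 without LD 6 and 19 without LD 1. The count of 6 between PO and ED was 0 in the fit of all arrays, 1 with the normexp background, 10 in the authors' deposited table and 17 with median centring; it was 4 to 12 when 1 array was left out, with 10 without ED 5 and 12 without LD 5.

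Some markers of other cell types of the wall differed between the same stages. In bulk tissue a change in cell numbers and one in expression per cell cannot be told apart. The leukocyte marker sum was 2.34 to 6.17 in TW ED, 3.81 to 17.9 in TW LD and 6.52 to 29.3 in TW PO, and 4 of 6 markers rose from LD to PO (CD74, C1QB, CD14 and CD3E). The endothelial sum was 3.22 to 7.09 in ED, 1.87 to 7.89 in LD and 6.16 to 10.8 in PO. Of the 7 markers, PECAM1 and CDH5 alone were called higher in PO than in LD. The smooth muscle and pericyte sum was 10.8 to 33.5, 3.43 to 27.9 and 10.6 to 27.3 in the 3 stages, which overlapped. Of the 6 markers, RGS5 alone was called higher in PO than in LD. Red blood cell markers summed to 0.114 to 0.385, 0.102 to 1.77 and 0.151 to 1.23, with none called from LD to PO. The granulosa sum on TW arrays was highest in TW ED 5 and 3, and without these 2 arrays 1 gene was called between TW LD and ED. The part of these cells in the theca wall differences of the mitosis genes was not tested.

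KIF15 had the largest called fall in the theca wall. Its levels were −0.95, −1.67, −1.31, −0.13 and −1.96 in TW ED, −2.39, −2.82, −2.81, −1.87 and −2.33 in TW PO and, over the TW LD arrays, lowest −4.27, median −2.84 and highest −2.30. Every LD array was below every ED array, and PO lay between them with overlap on both sides. KIF15 changed by −1.80 ± 0.31 (adjusted p = 0.0428) from ED to LD and by −1.24 ± 0.35 (adjusted p = 0.0152) from ED to PO. STMN1 was at 3.09, 3.03, 3.0996, 3.73 and 2.89 in TW ED, 2.18, 2.23, 2.17 and 2.29 in TW PO and, over the TW LD arrays, lowest 1.74, median 2.13 and highest 2.35, with the spots on TW LD 7 and TW PO 4 left out. The ED arrays lay above all LD and all PO arrays, and LD and PO overlapped. STMN1 changed by −1.08 ± 0.15 (adjusted p = 0.0266) from ED to LD and by −0.95 ± 0.17 (adjusted p = 0.00169) from ED to PO, against 0.12 ± 0.16 (adjusted p = 0.62) from LD to PO. SGO2 was at −1.59, −2.46, −1.86, −1.43 and −2.37 in TW ED, −2.62, −3.26, −2.77, −2.33 and −2.81 in TW PO and, over the TW LD arrays, lowest −3.52, median −2.80 and highest −2.15. ED and PO overlapped, and the PO arrays lay inside the LD range. SGO2 changed by −0.82 ± 0.24 (adjusted p = 0.0197) from ED to PO and by −0.86 ± 0.21 from ED to LD (adjusted p = 0.11, not called). ECT2, NUSAP1 and SPC24 were the other genes lower in PO than in ED, by −0.86 ± 0.22 (adjusted p = 0.00815), −0.99 ± 0.33 (adjusted p = 0.0345) and −0.95 ± 0.26 (adjusted p = 0.0121).

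MKI67 in the theca wall was at −1.87, −2.77, −2.11, −1.21 and −3.00 in TW ED, −2.23, −2.48, −2.73, −2.21 and −2.44 in TW PO and, over the TW LD arrays, lowest −5.27, median −3.33 and highest −2.75. Every PO array was above every LD array, the only gene of the 49 for which this held, against 0.866% of all features. MKI67 changed by 1.24 ± 0.35 (adjusted p = 0.0252) from LD to PO, and its ED to LD difference of −1.46 ± 0.35 was not called (adjusted p = 0.106). FOXM1 was at −5.68, −6.32, −5.51, −4.25 and −6.17 in TW ED, −6.89, −5.36, −6.69, −5.61 and −6.27 in TW PO and, over the TW LD arrays, lowest −8.53, median −7.11 and highest −6.54. Its ED and LD arrays did not overlap, while PO 1 and PO 3 were within the LD range, and the probe was above background on 2 of the 9 LD arrays. The LD to PO change was 1.27 ± 0.40 (adjusted p = 0.0373), which is not exact against the dim LD arrays. With the normexp background the FOXM1 difference had the opposite sign, −0.34 (adjusted p = 0.555). PRC1 was at −1.28, −1.70, −1.42, −0.29 and −2.26 in TW ED, −1.69, −1.84, −1.72, −1.05 and −1.35 in TW PO and, over the TW LD arrays, lowest −4.26, median −2.57 and highest −1.76, and LD and PO overlapped. Its change from LD to PO was 1.17 ± 0.36 (adjusted p = 0.0343). UBE2C was at 1.15, 0.39, 1.06, 1.63 and 0.54 in TW ED, 0.87, 0.58, 0.79, 0.98 and 0.92 in TW PO and, over the TW LD arrays, lowest −1.70, median −0.12 and highest 1.06, and LD and PO overlapped. It changed by 1.07 ± 0.36 (adjusted p = 0.0485) from LD to PO. CCNB1 was at 0.82, 0.20, 0.71, 0.40 and −0.15 in TW ED, 0.38, −0.14, −0.11, 0.49 and 0.14 in TW PO and, over the TW LD arrays, lowest −2.31, median −0.66 and highest −0.10, again with overlap of LD and PO. It changed by 0.93 ± 0.29 (adjusted p = 0.0383) from LD to PO, and NCAPH, a condensin subunit, by 1.12 ± 0.30 (adjusted p = 0.0215).

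The remaining genes with values given for granulosa cells were called in no theca wall stage comparison. CCNA2 was at −0.24, −1.06, −0.40, 0.64 and −0.94 in TW ED, −0.59, −0.94, −0.91, −0.46 and −0.70 in TW PO and, over the TW LD arrays, lowest −2.60, median −1.48 and highest −0.90. CDK1 was at 1.31, 0.12, 0.93 and 0.44 in TW ED, 1.04, 0.77, 0.55, 0.92 and 0.74 in TW PO and, over the TW LD arrays, lowest −1.02, median 0.33 and highest 0.78, with the spot on ED 4 left out. For both, the LD median was the lowest of the 3 stages and the groups overlapped. BUB1 was at 0.15, −0.59, 0.037, 0.45 and −0.43 in TW ED, −0.56, −1.07, −1.20, −0.29 and −0.73 in TW PO and, over the TW LD arrays, lowest −3.12, median −1.42 and highest −0.85. TTK was at −0.75, −1.60, −0.94, −0.44 and −1.62 in TW ED, −1.64, −2.06, −2.14, −1.30 and −1.69 in TW PO and, over the TW LD arrays, lowest −3.99, median −2.39 and highest −1.74. For BUB1 and TTK no LD array reached the ED range, with differences of −1.52 ± 0.30 (adjusted p = 0.0674) and −1.38 ± 0.30 (adjusted p = 0.0886). AURKB was at −1.48, −2.31, −1.81, −0.92 and −2.37 in TW ED, −1.50, −1.50, −2.42, −1.54 and −2.06 in TW PO and, over the TW LD arrays, lowest −4.38, median −2.65 and highest −1.67, with LD 7 left out. BIRC5 was at −0.38, −1.60, 0.014, −1.56 and −1.45 in TW ED, −0.99, −0.77, −1.09, −0.86 and −1.15 in TW PO and, over the TW LD arrays, lowest −2.68, median −1.62 and highest −0.41. Their stages overlapped, and the ED to PO differences were −0.025 ± 0.42 and 0.022 ± 0.40. TPX2 was at 0.48, 0.32, 0.60 and −0.14 in TW ED, 0.12, −0.35, −0.30, 1.03 and −0.29 in TW PO and, over the TW LD arrays, lowest −2.42, median −0.77 and highest −0.067, with ED 4 left out. PLK1 was at −0.34, −0.999, −0.46, 0.66 and −0.98 in TW ED, −0.95, −0.56, −1.25, −0.21 and −0.53 in TW PO and, over the TW LD arrays, lowest −2.91, median −1.65 and highest −0.74. AURKA was at −0.95, −1.59, −0.81, −0.27 and −1.10 in TW ED, −0.58, −1.32, −0.60, −1.05 and −0.60 in TW PO and, over the TW LD arrays, lowest −2.13, median −1.08 and highest −0.40. These 3 kinase genes and partners overlapped between stages, AURKA with the smallest LD minus ED difference of the 49, −0.15 ± 0.24 (adjusted p = 0.813).

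NDC80 was at −1.53, −2.70, −1.51, −2.86 and −2.12 in TW ED, −1.91, −2.40, −2.40, −1.94 and −2.23 in TW PO and, over the TW LD arrays, lowest −4.56, median −3.07 and highest −2.14. SPC25 was at 0.54, −0.73, 0.26, 0.19 and −0.092 in TW ED, −0.091, −0.35, −0.63, −0.13 and −0.48 in TW PO and, over the TW LD arrays, lowest −2.19, median −0.75 and highest −0.28. CENPF was at −1.82, −2.21, −2.17, −0.72 and −3.03 in TW ED, −2.92, −3.95, −3.40, −2.26 and −3.04 in TW PO and, over the TW LD arrays, lowest −5.60, median −3.79 and highest −3.34. Of these kinetochore genes CENPF alone had all LD arrays below all ED arrays, with a difference of −1.96 ± 0.38 (adjusted p = 0.0674). KIF11 was at −0.38, −1.27, −0.54, 0.76 and −1.07 in TW ED, −0.76, −1.34, −1.22, −0.86 and −0.995 in TW PO and, over the TW LD arrays, lowest −3.42, median −1.90 and highest −0.88. KIF20A was at −1.23, −1.62, −1.38, −0.73 and −2.46 in TW ED, −2.34, −2.90, −2.69, −1.85 and −2.37 in TW PO and, over the TW LD arrays, lowest −4.96, median −2.91 and highest −2.33. ANLN was at −1.51, −2.47, −1.77, −0.50 and −2.47 in TW ED, −1.88, −2.16, −2.31, −1.65 and −1.89 in TW PO and, over the TW LD arrays, lowest −4.16, median −2.82 and highest −1.93. Each of the 3 was lowest in LD by its median and overlapped between stages, and TW LD 5 was the lowest TW array for all of them. TOP2A was at 0.90, −0.084, 0.76, 0.94 and −0.13 in TW ED, 0.26, −0.29, −0.25, 0.20 and −0.10 in TW PO and, over the TW LD arrays, lowest −2.54, median −0.76 and highest −0.15. NCAPG was at 0.88, 0.14, 0.71, 2.17 and 0.33 in TW ED, 0.42, 0.26, 0.59, 1.19 and 0.89 in TW PO and, over the TW LD arrays, lowest −0.95, median −0.16 and highest 0.82. TOP2A had no LD array within the ED range (−1.35 ± 0.32 (adjusted p = 0.104)), while NCAPG overlapped between stages. E2F8 was at −2.70, −4.21, −2.60, −1.77 and −3.46 in TW ED, −2.90, −3.38, −3.71, −3.11 and −3.15 in TW PO and, over the TW LD arrays, lowest −5.99, median −4.50 and highest −2.99. REP15 was at −4.55, −3.51, −3.86, −3.87 and −3.60 in TW ED, −3.92, −5.44, −4.76, −4.22 and −3.68 in TW PO and, over the TW LD arrays, lowest −5.30, median −4.72 and highest −3.86. Both overlapped between stages.

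Compared with the theca wall at the same stage, granulosa cells had higher levels of 34 of the 49 genes at ED and lower levels of none, with a median difference of 1.95; 14.2% of all 28123 features were called higher. On 40 genes every GC ED array was above every TW ED array, against 13.7% of all features. REP15 had the largest difference, 2.84 ± 0.56 (adjusted p = 0.000151), and MKI67 differed by 1.83 ± 0.73 (adjusted p = 0.0498). The MKI67 call was lost with slide as a fixed block (adjusted p = 0.106), with no filter on dim probes (adjusted p = 0.0586), without TW ED 3 and 5 (adjusted p = 0.179) and in most fits that left out 1 array. At LD the median was 0.57, and MAD2L1 (0.95 ± 0.33 (adjusted p = 0.0251)), REP15 (2.03 ± 0.49 (adjusted p = 0.0017)) and STMN1 (0.86 ± 0.30 (adjusted p = 0.0295)) were higher in granulosa cells, 6.12% of the 49, where 12% of all features were called higher. Within slides 2 and 8, which held both layers, the LD medians were 0.98 and 2.62. Each compares 1 GC array with 1 TW array, GC LD 1 with TW LD 2 and GC LD 4 with TW LD 8. GC LD 2 and 3, with the lowest medians of the GC LD arrays (−2.71 and −4.94), lay on other slides. At PO the order was turned: 42 genes were lower in granulosa cells than in the theca wall, with a median of −3.47, where 28.8% of all features were called lower. On 39 genes every GC PO array was below every TW PO array, against 19.1% of all features. TOP2A differed by −5.22 ± 0.72 (adjusted p = 6.84e-07), and NDC80, which no GC PO array measured above background, was at least 51.8-fold lower (adjusted p = 6.87e-06). Over the settings run this NDC80 difference ran from −6.23 to −1.61, and the smallest falls well short of that fold. AURKA was the 1 gene called higher in granulosa cells at PO, by 1.31 ± 0.47 (adjusted p = 0.0216), where 20% of all features were called higher. This call was lost with slide as a fixed block (adjusted p = 0.157), without the arrays of slide 7 (adjusted p = 0.0514) and without TW PO 2 (adjusted p = 0.0521), GC PO 3 (adjusted p = 0.103) or GC PO 5 (adjusted p = 0.0839). The 6 genes not called at PO were MAD2L1, PLK1, SPC24, SMC2, ECT2 and STMN1. At ED and PO the layers were on different slides, so layer and slide cannot be told apart there. With slide as a fixed block the counts were 3 at ED and 12 at PO, with medians of 2.59 and −2.605. That fit joins the layers only through TW LD 2 and TW LD 8, arrays of another stage, so its counts are no slide-corrected result. Without TW ED 3 and 5, which had the highest granulosa sums of the wall arrays, the count at ED was 16, and the count at LD was 33 without GC LD 3, 8 without GC LD 2 and 1 without GC LD 4 or GC LD 5.

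The change from ED to PO itself differed between the layers for 47 of the 49 genes, all with the lower change in granulosa cells, with a median difference of changes of −5.48; 15.6% of all 28076 features were called in that direction. For TOP2A the difference of changes was −6.81 ± 1.017 (adjusted p = 4.48e-05). For NDC80 it was −8.32 ± 1.33 (adjusted p = 7.35e-05) and for CENPF −7.51 ± 1.29 (adjusted p = 0.000142), both not exact because no GC PO array measured these genes above background. The exceptions were AURKA (−0.45 ± 0.66 (adjusted p = 0.643)) and SPC24 (−1.81 ± 0.70 (adjusted p = 0.0502)). From LD to PO, 44 genes differed, with a median of −3.96, where 10.8% of all features were called in that direction. For TOP2A the difference was −5.44 ± 0.96 (adjusted p = 0.00071). AURKA (adjusted p = 0.687), PLK1 (adjusted p = 0.0625) and SMC2 (adjusted p = 0.214) were not called, and neither were SPC24 and ECT2. For MKI67 the granulosa change of −3.72 and the theca wall change of 1.24 from LD to PO gave a difference of −4.96 ± 0.97 (adjusted p = 0.00137).

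**Figure D4:**
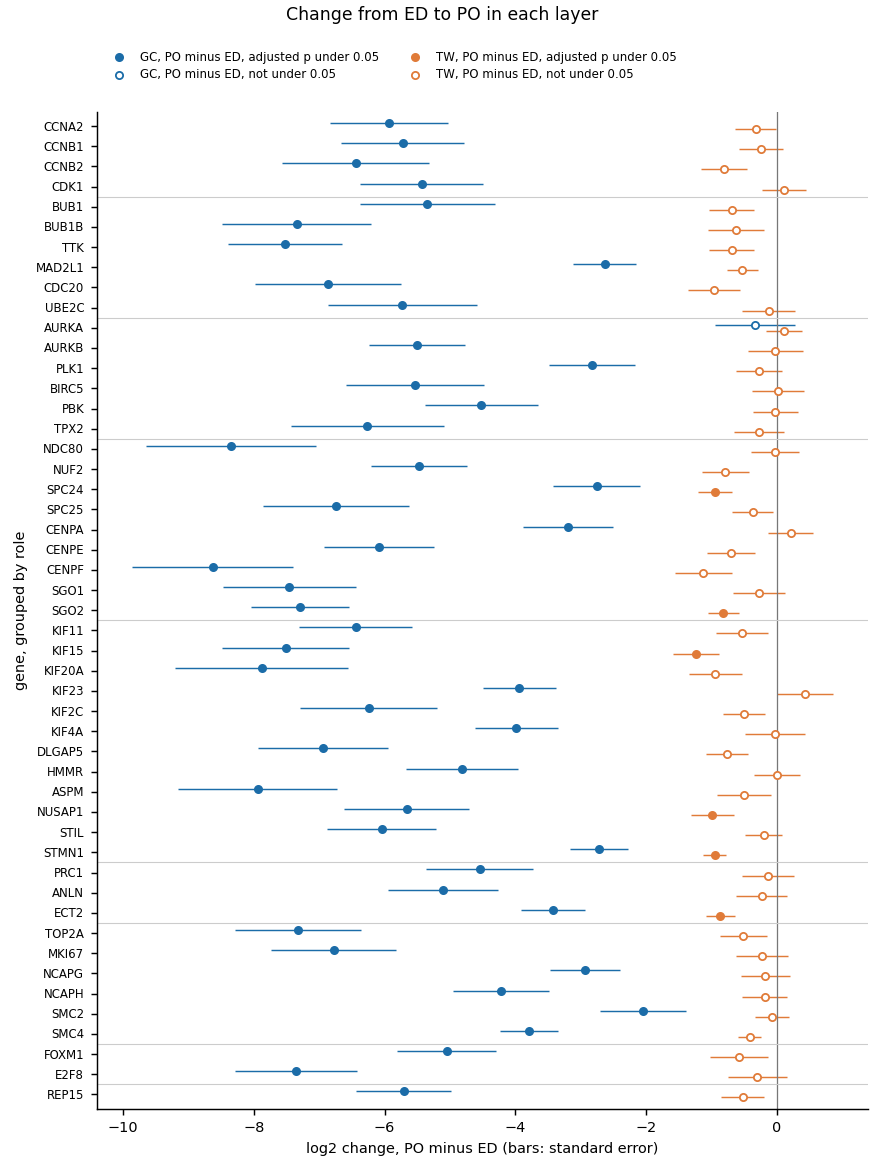
Change from ED to PO (log2, PO minus ED) of the 49 genes in GC and in TW, with bars for the standard error and the genes grouped by role. The GC points lie between −8.63 and −0.34 with AURKA nearest to 0, and the TW points lie between −1.24 and 0.43.

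Where a gene had several probes, they were compared in a fit of every probe. Of the 89 probes, 88 were called lower in GC PO than in GC ED, and the remaining one was that of AURKA. In this comparison all probes of each of the 26 genes had the same sign, and the median spread between the probes of a gene was 0.18. Probes of 8 genes (BIRC5, E2F8, KIF4A, MAD2L1, PLK1, REP15, SPC25 and UBE2C) share 20 or more bases in every pair, so they are not independent readings. KIF15 had the widest spread, from −7.51 to −4.36 over 3 probes, which were above background on 30 to 34 of the 34 arrays. KIF4A probe 1 changed by −3.99 and probe 2 by −7.04, although they share the 28 bases shown in capitals. CENPE probe 1 changed by −6.09 and probe 2 by −8.97. For both genes probe 2 was above background on 29 of the 34 arrays and probe 1 on all 34, so the larger falls of probe 2 are not exact. NCAPG probes 1 and 2 changed by −2.94 and −2.99, and probes 3 and 4 by −1.01 and −1.11. Without probes 3 and 4, whose identity is in doubt, 86 of 87 probes were called lower. The BIRC5 probes, which differ at 3 bases and carry different gene names, changed by −5.53 and −5.62. Whether both read the same gene was not tested. In the theca wall the probes of a gene had the same sign for 25 of the 26 genes from ED to LD. The exception was NCAPG, with a range of −1.02 to 0.033 over 4 probes that include the doubtful probes 3 and 4. From LD to PO the sign was the same for 22 genes and from ED to PO for 21.

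**Figure D5:**
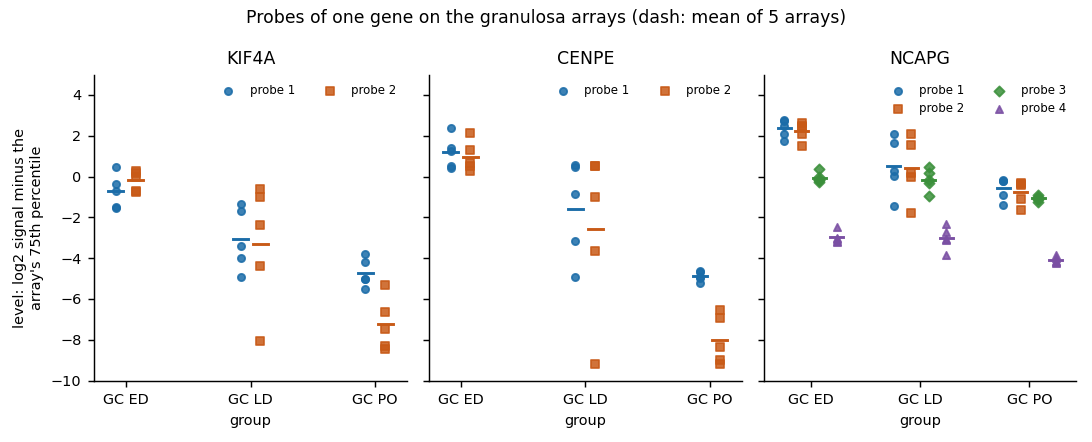
Levels (log2 signal minus the array's 75th percentile) of the separate probes of KIF4A, CENPE and NCAPG on the GC arrays, by stage, with a dash for the mean of 5 arrays. The 2 probes of KIF4A and of CENPE part most in GC PO, and NCAPG probes 3 and 4, whose identity as NCAPG is in doubt, change less than probes 1 and 2.

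Other genes of the cell cycle were read from 4 lists. Of 49 measured genes of DNA replication and S phase, 44 fell from ED to PO in granulosa cells and none rose, with a median of −2.42; FANCI, a DNA crosslink repair protein, changed by −6.35, CDC45, a part of the replicative helicase, by −5.98 and ASF1B, a histone chaperone, by −5.89, with 3, 3 and 1 of the 5 PO arrays above background. Over all features of that comparison 22.4% were called lower and 21.6% higher. Of 69 further mitosis genes, 62 fell and 2 rose, with a median of −3.99; HJURP, the chaperone of CENPA, changed by −6.99 and NEK2, a centrosome kinase, by −6.90, with 1 and 2 of the 5 PO arrays above background, and PIMREG, with none, was at least 83.6-fold lower (adjusted p = 0.00028). Of 29 cell cycle transcription regulators, 12 fell and 4 rose, with a median of −0.44, and LIN9, MYBL2 and RBL1, parts or relatives of the DREAM and MYB complexes, fell by 3.48, 3.23 and 3.12. Of 23 genes of the anaphase-promoting complex and cohesin, 10 fell and 1 rose, with a median of −0.65; FBXO5, an inhibitor of that complex, fell by 4.55, SMC3 of cohesin by 2.47 and PDS5B, a cohesin regulator, by 1.85. From LD to PO 14, 37, 6 and 6 genes of the 4 lists fell in granulosa cells, with 1 of the last list higher, where 10.6% of all features were called lower and 6.77% higher, and from ED to LD none was called. In the theca wall, from LD to PO, 12 of the 69 further mitosis genes rose and 1 fell, with CENPU, a centromere protein, up by 1.72, KIF22, a chromosome motor, by 1.63 and RACGAP1, which works with KIF23, by 1.59; over all features 8.7% were called higher and 6.85% lower. In the same comparison 3 replication genes rose (ASF1B, CHAF1A and ORC6, by 1.15, 0.93 and 0.78) and 1 fell, 2 regulators rose (CDKN1A, the inhibitor p21, by 1.43, and RB1 by 0.87) and CCND3, a D cyclin, fell by 0.71, and ANAPC5, ANAPC11 and ANAPC4 of the anaphase-promoting complex fell by 1.03, 0.57 and 0.50. The share of replication genes that rose was below that of all features. From ED to PO in the theca wall 16 replication genes fell and none rose, with MCM5, of the replicative helicase, at −1.56, GINS3 at −1.18 and FANCI at −1.16, where 12.4% of all features were called lower and 13.8% higher. For the other lists the counts were 2 higher and 10 lower of the further mitosis genes (CENPU 1.60, CDCA5 1.23 and DIAPH3 −1.005), 3 higher and 5 lower of the regulators (CDKN1A 2.27, CDKN2C −1.16 and CCND2 −1.11) and 3 lower of the last list (ANAPC5 −1.33, STAG1 −0.80 and SMC3 −0.75). The shares lower in the further mitosis genes and the last list were near that of all features. From ED to LD in the theca wall CCND2, another D cyclin, was the 1 gene called, at −0.90.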

How the data were processed

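Per the labels' protocols, poly(A) RNA of intact total RNA was copied from an oligo(dT) primer, and the antisense RNA transcribed from the copies carried Cy3. The spot intensity values were deposited as scanner files read with Agilent Feature Extraction 9.5.3.1, per the file headers, and version 9.1 is the one in the submitters' processing notes. The processed intensity has background subtracted, per the file headers, and is not scaled between arrays. The log2 values of the deposited table carry no statement of how they were made; on every array they differed by at most 0.0329 from quantile-normalized log2 mean signal, and they served as an alternative.

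Here log2 of the processed intensity minus the 75th percentile of each array over 43803 spots outside the controls was used. Spots with an outlier flag were left out, saturated spots kept and spots of 1 probe averaged. A probe entered a fit if well above background on 5 or more of its arrays. Each named gene stood as its brightest probe by the mean over all arrays, and unnamed probes as themselves. Changes were tested with limma 3.58.1 (lmFit and eBayes, R 4.3.3), with stage means within 1 layer and, for layer differences and differences of changes, 6 group means over 34 arrays. Replicate numbers follow accession order and only name arrays. P-values measure the spread between these samples, pooled over all groups of a fit and taken as equal in them. The scattered GC LD arrays thus enter the standard errors of comparisons without LD. Without GC LD 3, the count for GC minus TW at ED was 47 in place of 34.

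The member genes, the roles, the lists and the comparisons were chosen with earlier results of these data known. Full values are given for 25 genes, chosen likewise, for the gene with the largest called change in each direction, and for the 3 largest called changes of each list. On simulated data with 50 changed features of 24240 per size, the granulosa fit of PO against ED called 14% of log2 changes of 1, 64% of 2 and 90% of 4. The simulation changed few features and drew independent noise, while in the data 22.4% of all features were called lower and 21.6% higher. These rates therefore do not describe the comparison in the data. Promoter sequences were not used here.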

Additional observations from a re-analysis of the deposited data

Results flagged for a closer look

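The levels of 26 member genes and the median level of the 49 measured members were examined in each group for an array whose gap to its nearest neighbour is large against the range of the group, and chance alone gives about 1 in 20 such groups. Of the 162 sets of arrays so examined, 12 (7.4%) had an array apart. TW LD 5 accounted for 9 of the 12, as the lowest TW LD array: the median level of the member genes was −3.42 there, TOP2A was at −2.54, CCNB1 at −2.31, BUB1 at −3.12, TTK at −3.99, CENPF at −5.60, KIF11 at −3.42, KIF20A at −4.96 and TPX2 at −2.42. On this array the endothelial marker sum was 1.87, the lowest of the TW arrays, and the granulosa sum was 37; their part in its low levels was not tested. ANLN was at −6.21 on GC LD 3, far below the other GC LD arrays. KIF20A was at −4.72 on GC PO 4, above the other GC PO arrays. STMN1 was at 3.73 on TW ED 4, above the other TW ED arrays and on the noisy slide 7.

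The stage change differed between granulosa cells and theca wall for 47 of the 49 genes from ED to PO and for 44 from LD to PO, by the limma test of the difference itself.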

How the results depend on the processing

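The falls from GC ED to GC PO (48 genes called) and the differences of changes between layers (47 and 44) kept their direction and stayed within 1.5 times of their count under every setting run. Counts that moved further were as follows. With the normexp background 0 genes were called for TW LD minus ED (2 as reported), 0 for TW PO minus LD (6) and 1 for TW PO minus ED (6). With median centring the counts were 7 for TW LD minus ED, 17 for TW PO minus ED and 13 for GC minus TW at LD (3), and with the deposited values they were 10, 10 and 9. With quantile normalization 6 were called for GC minus TW at LD, and with no filter on dim probes 1 for TW LD minus ED. Slide as a fixed block gave 0 for TW LD minus ED, 0 for TW PO minus LD, 3 for GC minus TW at ED (34), 1 at LD and 12 at PO (43). In that fit only TW LD 2 and 8 join the layers. Array quality weights gave 29, 24 and 25 for TW LD minus ED, TW PO minus LD and GC minus TW at LD. With all arrays in one fit 39 were called for GC LD minus ED (0) and 0 in each of the 3 TW stage comparisons. Without the arrays of slide 7 there was 1 call for TW LD minus ED. Chosen after seeing the data, leaving out TW ED 3 and 5, the 2 arrays with the highest granulosa sums, gave 1 for TW LD minus ED and 16 for GC minus TW at ED, and leaving out TW LD 2 and 8, on GC slides, gave 1 for TW LD minus ED and 0 for TW PO minus LD. With each array left out in turn, counts ranged from 0 to 25 for GC LD minus ED, 16 to 45 for GC PO minus LD, 47 to 48 for GC PO minus ED, 0 to 3 for TW LD minus ED, 0 to 19 for TW PO minus LD, 4 to 12 for TW PO minus ED, 25 to 47, 1 to 33 and 41 to 43 for GC minus TW at ED, LD and PO, and 46 to 48 and 41 to 47 for the differences of changes. The sign turned for FOXM1 with normexp, at TW PO minus LD (−0.34) and GC minus TW at PO (0.12), and for AURKA from GC ED to PO with quality weights (0.43) and with 1 array left out (from −0.73 to 0.088), none of them called. Of 2232 settings of 180 single gene results, 179 lost and 31 gained the call and 4 changed sign. The cause was not tested. Scaling moved the median of all features most for GC minus TW at PO, from −0.25 to between 0.10 and 0.53. Between GC PO and ED the shift was −0.23 with normexp and under 0.1 in size with the other scalings. Members that no GC PO array measured above background have only an approximate bound there. The labels carry no replicate numbers shared between groups; slides joined the stages of a layer, and the fixed slide block served as the paired fit. Of 19 genes with values given and called for GC PO minus LD, 10 lost the call in 1 or more fits that left out an array, as did 6 of 17 for GC minus TW at ED and 1 of 26 for GC PO minus ED.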
